A study of Drosophila melanogaster with 2 samples.

Results

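Translation initiation, elongation and release factor genes were examined for promoter enrichment of tHMG1 (CG7045), a small HMG-box protein named for testis. The set held every protein-coding gene whose Ensembl symbol begins with eIF, eEF or eRF followed by a digit, which gave 53 of 13968 protein-coding genes. Genes entered the set by name, not by a measured value, although the set itself was proposed with earlier results of these data known. The data came from chromatin immunoprecipitation and sequencing (ChIP-seq) with an anti-GFP antibody, on whole adult males of a transgenic line that stably expresses tHMG1 with GFP fused to its C-terminus. There were 2 biological replicates of this line, numbered 1 and 3, in 1 group, so no contrast between conditions could be made. The age of the flies is given as unknown, and the labels state neither what drives the transgene nor how many animals were pooled. All comparisons below are between genes within these males, as counts and values without a test.

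A gene was called bound when a peak summit lay within 500 bp of any of its annotated transcription start sites (TSSs). Summits came first from the authors' reproducible set of 4574 peaks, made by the irreproducible discovery rate (IDR) method, and then from their relaxed list of 30000 pooled peaks, which by its name includes background. The peak signal is the authors' enrichment value for each peak, from 90.3 to 2864 in the IDR list with a median of 145.9. The replicates' own lists are on their own scales, with a median signal over their 4574 strongest peaks of 85.7 in replicate 1 and 64.6 in replicate 3. Read depth was unknown.

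Protein synthesis starts when a small ribosomal subunit, carrying initiator tRNA on eIF2 and held by the many-subunit eIF3, is brought to the capped end of an mRNA by eIF4E, the scaffold eIF4G and the helicase eIF4A. Elongation factors then bring in each aminoacyl-tRNA and move the ribosome along, and release factors free the finished protein at the stop codon. In Drosophila several of these factors have second genes that are used in the male germline, such as eIF4G2 and eIF4E3, which are needed in spermatocytes beside the general eIF4G1 and eIF4E1. The name rule also takes in proteins with other main roles, such as eIF6, which keeps ribosomal subunits apart, and eIF4EHP, a cap-binding repressor of translation.

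Promoters of 6 genes show the range of sequence under these peaks. They run from 250 bases before to 50 bases after the canonical TSS on the strand of the gene, in dm6, and were read from the RefSeq release 6 genome. Letters are in capitals where 1 of 9 short motifs was matched. These were the DNA replication-related element (DRE, TATCGATA), the Ohler 1 and Ohler 6 cores (GTCACACT and GGTATACC), the E-box CAGCTG, the GAGA repeat GAGAGAG, the CA repeat CACACACA, the TATA box TATAAA and the HMG-box core ACAAT, each on both strands, and the TCT initiator CTTTC on the gene's own strand, starting within 5 bases of the TSS. The CA repeat and the Ohler 1 core share the letters CACAC. The promoter of eIF4EHP (minus strand, chr3R:24108911-24109210) holds the summit of the strongest peak in the set at base 24 of the run. That of eEF1gamma (plus strand, chr3R:29219922-29220221) has its summit at base 224, 7 bases past a DRE. That of eIF3a (minus strand, chr3R:4433846-4434145) has its summit at base 186 and a DRE at bases 213 to 220. The eEF2 promoter (minus strand, chr2L:21682067-21682366) has its summit at base 259, where the TCT initiator of bases 255 to 259 ends. The eIF4G2 promoter (minus strand, chr3R:23819188-23819487) is the bound promoter of a testis paralog, with its summit at base 230. The eIF4E3 promoter (plus strand, chr3L:8228974-8229273), of another testis paralog, held no peak and none of the 9 motifs.
eIF4EHP: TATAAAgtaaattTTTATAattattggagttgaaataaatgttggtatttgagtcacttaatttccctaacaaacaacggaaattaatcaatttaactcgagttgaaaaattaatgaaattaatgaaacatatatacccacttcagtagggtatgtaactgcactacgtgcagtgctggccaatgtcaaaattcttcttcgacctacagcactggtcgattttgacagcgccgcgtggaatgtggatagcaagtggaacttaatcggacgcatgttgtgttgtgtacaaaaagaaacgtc
eEF1gamma: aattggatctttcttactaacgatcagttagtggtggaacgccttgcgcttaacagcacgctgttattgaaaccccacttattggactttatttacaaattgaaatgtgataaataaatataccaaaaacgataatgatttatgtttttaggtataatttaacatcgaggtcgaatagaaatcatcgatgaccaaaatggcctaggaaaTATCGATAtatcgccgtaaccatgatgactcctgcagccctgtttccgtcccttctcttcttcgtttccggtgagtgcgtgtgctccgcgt
eIF3a: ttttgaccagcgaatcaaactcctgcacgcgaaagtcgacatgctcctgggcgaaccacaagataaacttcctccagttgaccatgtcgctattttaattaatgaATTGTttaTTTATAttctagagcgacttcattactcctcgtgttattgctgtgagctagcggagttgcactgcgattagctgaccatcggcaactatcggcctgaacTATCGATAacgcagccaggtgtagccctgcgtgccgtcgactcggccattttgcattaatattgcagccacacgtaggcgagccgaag
eEF2: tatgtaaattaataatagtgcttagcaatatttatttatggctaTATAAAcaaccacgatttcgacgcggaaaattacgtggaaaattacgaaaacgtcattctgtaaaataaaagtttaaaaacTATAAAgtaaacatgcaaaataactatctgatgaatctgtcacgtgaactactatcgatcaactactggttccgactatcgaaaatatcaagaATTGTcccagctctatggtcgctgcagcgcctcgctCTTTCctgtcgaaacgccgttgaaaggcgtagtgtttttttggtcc
eIF4G2: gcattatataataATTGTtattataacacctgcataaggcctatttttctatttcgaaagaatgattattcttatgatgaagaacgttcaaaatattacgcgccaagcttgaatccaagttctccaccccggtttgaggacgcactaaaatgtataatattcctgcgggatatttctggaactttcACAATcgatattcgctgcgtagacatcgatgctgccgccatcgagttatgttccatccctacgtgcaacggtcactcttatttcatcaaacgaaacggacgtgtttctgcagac
eIF4E3: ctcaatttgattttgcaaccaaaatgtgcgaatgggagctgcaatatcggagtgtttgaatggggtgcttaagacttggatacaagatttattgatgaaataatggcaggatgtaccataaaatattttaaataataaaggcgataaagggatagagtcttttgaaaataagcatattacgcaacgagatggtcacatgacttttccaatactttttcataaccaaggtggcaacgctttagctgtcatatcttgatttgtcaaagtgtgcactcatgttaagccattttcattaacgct

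Promoters of the translation factor genes were bound more often than those of coding genes at large. An IDR summit lay within 500 bp of a TSS at 20 of the 53 genes (37.7%), against 2996 of all 13968 protein-coding genes (21.4%). In the pooled list 38 of the 53 (71.7%) had a summit there, against 7796 genes or 55.8%. The remaining 15 had none in either list. The strength of the peaks was close to that of other bound genes, with a median signal of 169.2 (range 112.5 to 1864) against 166.0 over all bound coding genes. Of the 20 genes, 4 had a signal above 400, against 12.4% of all bound genes. Because chromatin came from whole animals, a strong peak in few cells and a weaker one in many cannot be told apart.

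The members stood farther above other coding genes among genes with several annotated starts. Of the 22 members with 2 or more TSSs, 14 were bound (63.6%), against 35.6% of all such coding genes. Of the 31 with 1 TSS, 6 were bound (19.4%), against 16.4%. Genes with 1 TSS made up 58.5% of the members and 73.5% of coding genes. With a single start per gene, the most upstream, 18 members (34.0%) and 19.0% of coding genes were bound.

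**Figure D1:**
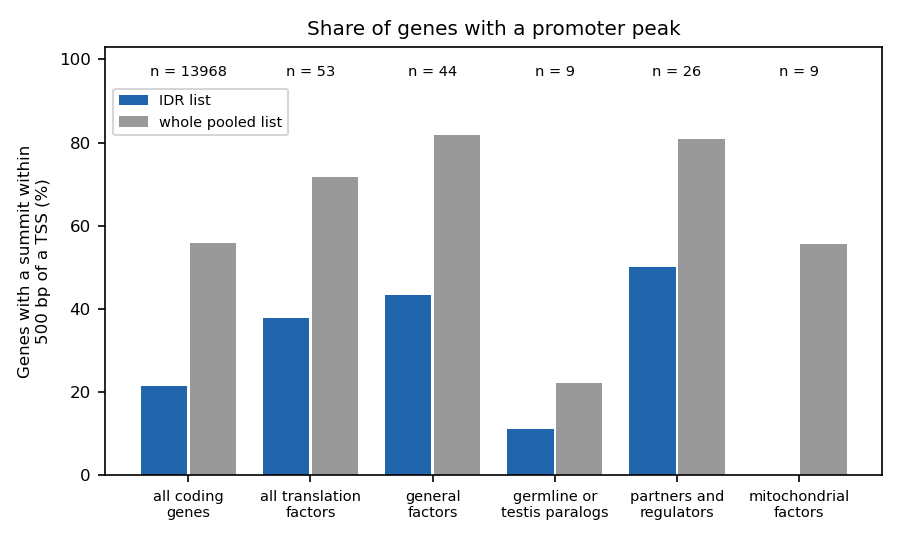
Percentage of genes with a peak summit within 500 bp of a TSS (vertical axis) in the IDR list (blue) and in the whole pooled list (grey), for 6 sets of genes with their numbers above. General factors stand at 43.2% in the IDR list and the germline or testis paralogs at 11.1%, with all coding genes at 21.4%.

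Nearly all bound members were general factors. Of 44 general factors, 19 were bound in the IDR list (43.2%) and 36 in the pooled list (81.8%). Of the 9 germline or testis paralogs, 1 was bound in the IDR list (11.1%) and 2 in the pooled list (22.2%), below the 21.4% and 55.8% of all coding genes. With 9 genes, 1 gene more or less moves the share by over 10 percentage points. Of these paralogs 8 have 1 TSS, and the bound one, eIF4G2, is the only one of them with more. Among general factors with 1 TSS, 6 of 23 were bound (26.1%), and among paralogs with 1 TSS, none of 8. The paralog class was assigned from background knowledge, less surely for eIF4E4, eIF4E6 and eIF4E7, and testis expression was not measured.

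**Figure D2:**
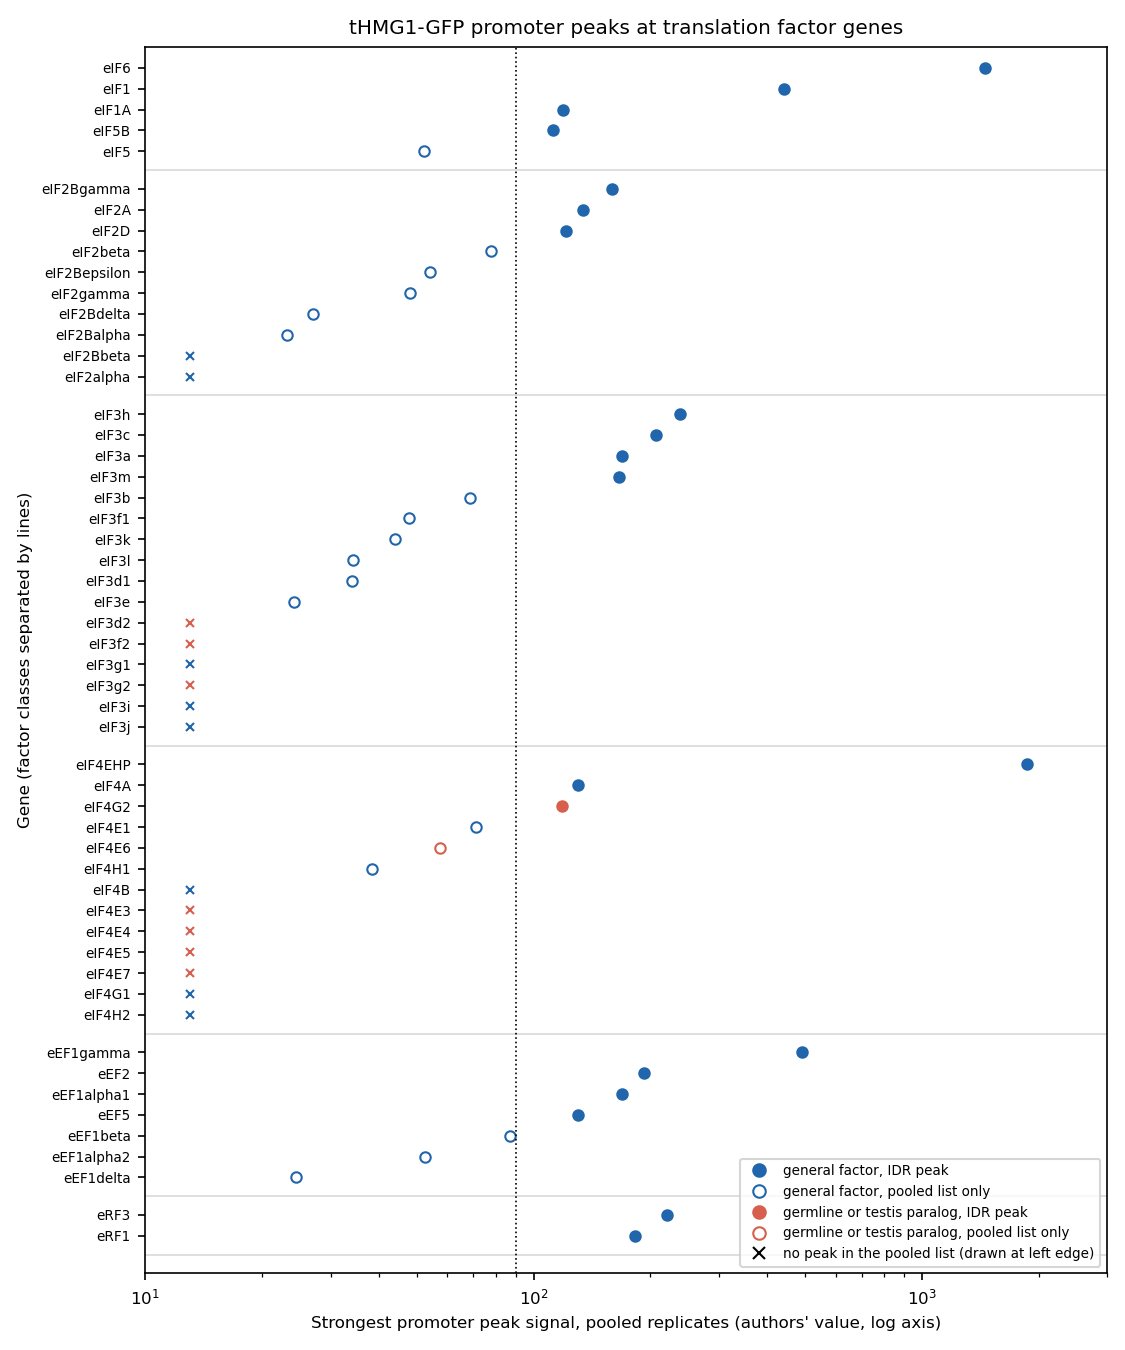
Signal of the strongest promoter peak (horizontal log axis, pooled replicates) for each of the 53 genes, by factor class. Filled points are IDR peaks, open points are in the pooled list only, and crosses mark genes with no peak, placed at an arbitrary position. The dotted line is the lowest IDR signal, 90.3. The 20 IDR genes run from 112.5 to 1864, and 7 of the 9 paralogs (red) are crosses.

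Among the factors grouped as acting on the small subunit and at the start codon, 4 of 5 were bound (80.0%, against 21.4% of coding genes). The group takes in eIF6, which is not itself such a factor, and 5 genes are too few to show a trait of the class. At eIF6, an anti-association factor needed for making large subunits, the signal was 951.0 in replicate 1 and 507.0 in replicate 3, and 1457 in the pooled list, where it ranked 15. Its summit, at 2R 23850411, lay 110 bp upstream of the TSS, in an exon of the antisense RNA asRNA:CR45928, whose own TSS was nearer at 81 bp. At eIF1, which guards start-codon choice, the strongest summit (signal 441.8, 269.6 in replicate 1 and 166.4 in replicate 3) lay 309 bp upstream of its TSS. This summit, at 3L 3223032, was only 72 bp from the TSS of RpL28, a ribosomal protein gene, and snoRNA:Or-CD11a also starts within 500 bp. A second IDR summit of signal 283.1 lay 55 bp upstream of eIF1 itself. The other bound genes of the class were weaker, eIF1A at 119.4 and eIF5B, the GTPase that joins the subunits, at 112.5, the lowest of the 20. At eIF1A replicate 1 gave 57.2 and replicate 3 gave 60.8, and the summit, at 3R 18274465, was 200 bp from its TSS and 19 bp from that of Vps39. At eIF5B they gave 69.8 and 45.7, with the summit at 3L 3460740 in the 5' UTR, 137 bp upstream of an inner TSS. On X, eIF5, which stimulates GTP hydrolysis by eIF2, had only a pooled-list peak of 52.3, with its summit 13 bp from its own TSS and from that of CG46312.

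The genes for eIF2, which delivers initiator tRNA, were not in the IDR list, and of its exchange factor eIF2B the gamma subunit alone was. For eIF2gamma the pooled-list signal was 48.2, with a peak of 49.2 in replicate 1 and none in replicate 3, and its promoter is shared with Set and Su(var)3-9. For eIF2beta it was 77.7 (49.0 in replicate 1 and 33.8 in replicate 3). The third subunit gene, eIF2alpha, had no summit within 500 bp, and its nearest in the pooled list was 1852 bp away. At eIF2Bgamma the signal was 159.4, with 105.1 in replicate 1 and 54.8 in replicate 3, and the summit lay in its 5' UTR, 10 bp past the TSS at 2R 15542671. The other 4 eIF2B genes had at most a pooled-list signal of 54.0, at eIF2Bepsilon. That summit lay 125 bp from the eIF2Bepsilon TSS and nearer, at 18 bp, to that of Ocrl. An IDR peak of signal 2007 lay 694 bp from the TSS of eIF2Bbeta, outside the window, and one of 99.7 lay 702 bp from eIF2Bdelta. With a 1000 bp window both genes would count as bound. The genes eIF2A and eIF2D, whose mammalian proteins can deliver tRNA without eIF2, were bound at 133.7 and 121.2. The eIF2D values were 64.8 in replicate 1 and 51.9 in replicate 3, with the summit at 3R 29151870, 76 bp upstream. Among the 20 IDR genes, the eIF2A peak had the largest ratio between replicates, with 92.9 in replicate 1 and 35.4 in replicate 3. In replicate 3 it ranked 6017, outside the 4574 strongest, and its summit lay 34 bp upstream of an inner TSS at 3L 21824931.

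Of the 13 general eIF3 genes 4 were bound (30.8%, against 21.4% of coding genes), with like signals. At 13 genes, that share is near the background. The strongest was eIF3h at 238.4, with 132.9 in replicate 1 and 99.1 in replicate 3. Its summit, at 2L 5052521, lay in an intron 259 bp past the TSS, with the TSS of senju 322 bp away, and a second IDR summit of 228.1 lay 24 bp past the TSS. At eIF3c the signal was 207.3 (121.0 and 82.5 in replicates 1 and 3), with the summit 64 bp upstream at 2R 17665614. At eIF3a, the largest subunit, it was 169.1 (102.9 and 66.0), in the narrow gap between eIF3a and CG1074, whose TSS was 5 bp from the summit at 3R 4433960. At eIF3m it was 165.6 (104.6 and 65.7), 4 bp past the TSS at 2R 14164821 and 230 bp from that of CG8323. In each of the 4 replicate 1 was higher. The other core scaffold subunit, eIF3b, had a pooled-list peak of 68.7 with its summit 7 bp upstream of a TSS. Another 5 general genes had pooled-list peaks from 24.1 at eIF3e to 47.7 at eIF3f1, and eIF3g1, eIF3i and eIF3j had none. The paralogs eIF3d2, eIF3f2 and eIF3g2 had no summit within 500 bp in either list. Their nearest pooled-list summits were 1295, 4537 and 7649 bp away. Of their general counterparts, eIF3d1 and eIF3f1 had pooled-list peaks of 34.0 and 47.7, and eIF3g1 had none, so no eIF3 pair differed in the IDR list.

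The cap-binding and helicase group held the strongest peak of the set. At eIF4EHP the signal was 1097 in replicate 1, 771.1 in replicate 3 and 1864 in the pooled list, where it ranked 5 of 30000. The summit, at 3R 24109187, was intergenic, 227 bp upstream of the eIF4EHP TSS and 149 bp from that of CG18428, so the peak is shared and nearer to the other gene. The helicase gene eIF4A had a signal of 129.9, with 81.4 in replicate 1 and 54.6 in replicate 3, with the summit at 2L 5982483 in a 5' UTR of the gene, 111 bp upstream of the nearest TSS. The main cap-binding gene eIF4E1 was below the IDR list at 71.1, with 21.2 in replicate 1 and 47.0 in replicate 3, and its summit was 17 bp upstream of a TSS. The scaffold gene eIF4G1, on chromosome 4, had no summit within 500 bp, the nearest IDR summit being 63575 bp away. Its testis counterpart eIF4G2 was bound, at 118.3, with 58.0 in replicate 1 and 64.0 in replicate 3. That summit, at 3R 23819258, lay in an intron of CG34355, 21 bp from the TSS of eIF4G2 and equally 21 bp from that of CG33111. Of the 5 minor eIF4E genes, eIF4E6 had a pooled-list peak of 57.3, with 40.6 in replicate 1 and 15.4 in replicate 3. Its summit was 36 bp from the eIF4E6 TSS and nearer, at 26 bp, to that of CG1951. At the other 4 (eIF4E3, eIF4E4, eIF4E5 and eIF4E7) no summit of either list was within 500 bp, and the nearest pooled-list summits, 1478 to 8140 bp away, had signals from 19.4 to 23.9. The RNA-binding helper genes eIF4B and eIF4H2 had none either. For eIF4B, on 3L, the nearest pooled-list summit was 154361 bp away and the nearest IDR summit 4979371 bp.

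The scaffold pair and the cap-binding pair differed. In the scaffold pair the testis gene held an IDR peak and the general gene no peak, although the eIF4G2 summit was equally close, at 21 bp, to the TSS of CG33111. For eIF4E1 and eIF4E3 neither was in the IDR list, and the general gene alone held a pooled-list peak. Chromosome 4, where eIF4G1 lies, had 12.5% of its 80 coding genes bound.

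All 7 elongation factor genes had a pooled-list peak, against 55.8% of coding genes, and 4 of them an IDR peak (57.1%, against 21.4%). At eEF1gamma, a subunit of the exchange complex that recharges eEF1A, the signal was 490.6, with 270.2 in replicate 1 and 223.1 in replicate 3. Its summit, at 3R 29220145, lay 27 bp upstream of the TSS with no other TSS within 500 bp, which made it the strongest unshared peak of the set. The translocase gene eEF2 had 192.6, with 88.8 in replicate 1 and 101.0 in replicate 3, and its summit, at 2L 21682108, was 8 bp past the TSS in its 5' UTR. At eEF1alpha1, the main tRNA carrier, the signal was 169.3, with 102.1 in replicate 1 and 68.9 in replicate 3, and the summit, at 2R 11892041, lay in an intron 81 bp upstream of an inner TSS. The second gene eEF1alpha2, whose use is restricted to some tissues, had a pooled-list peak of 52.6, with 37.6 in replicate 1 and 18.6 in replicate 3. At eEF5, the hypusinated factor that was long called eIF5A, the replicates differed the other way, with 45.3 in replicate 1 and 85.1 in replicate 3, and 130.2 pooled. In replicate 1 it ranked 5592, outside the 4574 strongest, and the summit lay 9 bp upstream of a TSS at 2R 24057844. The partners of eEF1gamma were not in the IDR list, with 86.8 at eEF1beta, just under the lowest IDR signal of 90.3, and 24.4 at eEF1delta. The eEF1beta summit lay 317 bp from its TSS and nearer, at 191 bp, to that of Psi. A closer pooled-list summit, 74 bp from the eEF1beta TSS, had a signal of 54.9.

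Both release factor genes were bound, against 21.4% of coding genes, but 2 genes are too few to show a trait of the class. At eRF3, the GTPase of the pair, the signal was 221.0, with 130.7 in replicate 1 and 96.8 in replicate 3. That summit, at 2L 12434206, lay 246 bp upstream of an eRF3 TSS and inside an intron of SC35, a splicing factor gene whose TSS was 168 bp away. A second IDR summit of 170.2 lay 46 bp upstream of an eRF3 TSS. At eRF1, which reads the stop codons, the signal was 182.3 (107.8 in replicate 1 and 74.5 in replicate 3), with the summit 122 bp upstream at 3L 20348233 and 291 bp from the TSS of Rbbp5.

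Each of the 20 IDR genes had an overlapping peak in both replicates' own lists, as had 99.5% of all bound coding genes. Replicate 1 gave the higher signal at 16 of the 20. The exceptions were eEF2, eEF5, eIF1A and eIF4G2. The ratio of replicate 1 to replicate 3 had a median of 1.46 and ran from 0.533 at eEF5 to 2.62 at eIF2A. In both replicates 18 of the 20 were among the 4574 strongest peaks, all but eEF5 and eIF2A. The IDR list is the reproducible set, so full support of its genes follows from how it was made. Of the 18 genes with a pooled-list peak only, 12 (66.7%) had a peak in both replicates, near the 72.1% of all such coding genes. Their signals ran from 23.2 to 86.8 with a median of 47.95, against 43.7 over all such genes.

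**Figure D3:**
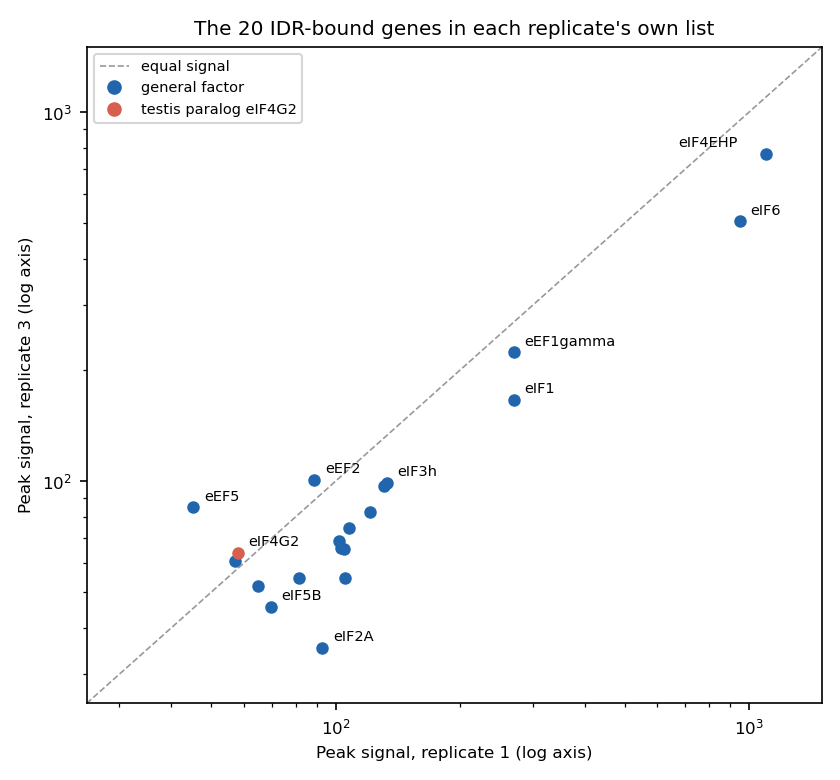
Peak signal in replicate 1 (horizontal) and replicate 3 (vertical), both on log axes, for the 20 genes with an IDR peak. Each point is 1 gene, and eIF4G2 is in red. Points below the dashed line of equal signal are the 16 genes that were higher in replicate 1, and the 4 above it are eEF2, eEF5, eIF1A and eIF4G2.

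Summits at bound members lay close to an annotated start. Distances were taken to the nearest of any TSS of the gene. Of the 20 genes 14 had 2 or more TSSs, against 1317 of the 2996 bound coding genes, and this was not allowed for. The strongest summit was within 100 bp of a TSS at 11 of the 20 genes (55.0%), against 33.5% of all bound coding genes, and the median distance was 78.5 bp against 145 bp. All 20 genes had an IDR summit within 250 bp, against 81.3% of bound coding genes, and at all 20 an IDR peak covered a TSS, against 67.1%. The summit was upstream at 16 of the 20 (80.0%, against 85.3%). It lay in intergenic sequence at 8, in a 5' UTR at 7, in an intron at 4 and in a non-coding exon at 1. Intergenic summits made up 40.0% here and 56.8% over all bound genes, and 5' UTR summits 35.0% and 20.4%.

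Many of these promoters were shared with a neighbour, as were those of bound coding genes at large. At 10 of the 20 genes, against 59.1% of bound coding genes, another gene had a TSS within 500 bp of the strongest summit, and at 6 of these it was nearer than that of the factor. The 6 were eIF4EHP, eIF6, eIF1, eRF3, eIF3a and eIF1A, so that both peaks above 1000 were nearer to another gene. Counting a peak for the gene with the nearest TSS alone left 16 members (30.2%) and 16.0% of coding genes. Within the bodies of bound members and away from their starts, 5 more IDR summits were found, 3 of them in introns of eIF5B with signals from 90.35 to 196.7. The others were in an intron of eIF4EHP (164.2) and in the 3' UTR of eRF1 (153.6), 62 bp from the TSS of CG5618.

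**Figure D4:**
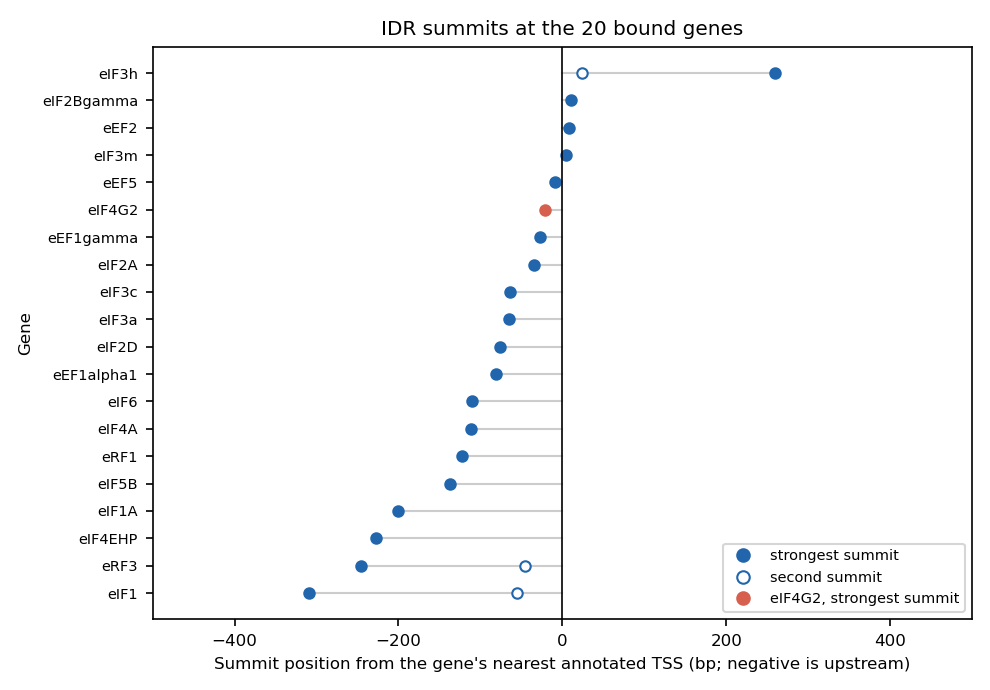
Position of IDR summits relative to the nearest TSS of each of the 20 bound genes (horizontal axis, bp, negative upstream). Filled points are the strongest summit and open points a second IDR summit. Of the strongest summits 16 lie upstream, and 11 lie within 100 bp of the TSS.

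No member on X was bound. Of 7 genes there, none had an IDR peak (14.0% of the coding genes of X did). In the pooled list 3 had a peak (42.9%, against 54.8% of the coding genes of X). At 7 genes, none bound is near the 14.0% of X and shows no trait of these members. The bound shares were 4 of 6 on 2L, 6 of 12 on 2R, 4 of 12 on 3L and 6 of 15 on 3R, where 21.2% to 24.4% of coding genes were bound. The unbound X genes were eIF5, eIF2alpha, eIF2Bbeta, eIF2Bepsilon, eIF3g1, eIF4H1 and the paralog eIF4E7.

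In promoter sequence, the DRE was found at 15 of the 53 genes (28.3%), against 8.94% of 13945 coding promoters of the same length, all arms but Y. It was present at 7 of the 20 bound members (35.0%) and at 8 of the 33 others (24.2%), and at 14 of 44 general factors against 1 of 9 paralogs, eIF4E6. Within 100 bases either side of the strongest summit it was found at 5 of the 20, against 3.17% of all IDR summits. The 5 were eEF1gamma, eIF1, eIF1A, eIF2A and eIF3a. At eIF1, eIF1A and eIF3a that summit was nearer to the TSS of another gene. The promoters of eIF1 and eIF2A, as read from the canonical TSS, held no DRE. The IDR summits as a whole include some far from any TSS, so this sets promoter summits beside summits of all kinds. The TATA box sequence was in 49.1% of the promoters (45.3% of all), 14 of 20 among bound members and 12 of 33 among the others. The HMG-box core, a short and frequent word, was in 71.7% (61.0% of all), in 70.0% of bound and 72.7% of unbound members. Whether tHMG1 itself prefers this word was not tested. The TCT initiator was found at eEF2 and eEF5 (1.65% of all promoters), both of them bound. The Ohler 1 core was found in 3 promoters (5.66%, against 6.45% of all). The E-box was found in 4 (7.55%, against 17.9%) and the GAGA repeat in 1, that of eIF3g2 (1.89%, against 6.20%). The CA repeat and the Ohler 6 core were found in none, against 4.41% and 0.201% of all promoters. The median GC content of the promoters was 36.0%, against 38.0%. Around summits it was 41.5% at the 20 genes and 36.8% over all IDR peaks, again with those away from promoters included.

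Partners and regulators of these factors were also bound more often than coding genes at large. Of 26 such genes 13 were bound in the IDR list, against 21.4% of all coding genes, and 21 in the pooled list (80.8%, against 55.8%). Among them, larp, a La-related RNA-binding protein gene, had a signal of 771.9, pAbp, the poly(A)-binding protein that joins eIF4G, 365.1 with its summit at the edge of the window, 500 bp from a TSS, and tral, of the eIF4E repressor complexes, 363.7. The tral summit lay 186 bp from its TSS and nearer, at 58 bp, to that of sti. Thor, the 4E-BP that holds eIF4E in check, had 261.8, and pix, which recycles ribosomes after release, 201.7. The eIF4E partner gene cup, me31B, Gcn2, Paip2 and DENR had no summit within 500 bp in either list. Of 9 genes for mitochondrial translation factors none was bound in the IDR list, against 21.4% of coding genes, and 5 were in the pooled list (55.6%, against 55.8%), with signals from 36.4 at mEFTu1 to 88.9 at mIF2.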

How the data were processed

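ChIP-seq of tHMG1-GFP was measured in 2 biological replicates of 1 group. The signal of each peak is the authors' value as deposited, from their peak caller. The lists also hold a −log10 q value, which the authors deposited and which was not used for ranking. The caller, the aligner and the IDR cut-off were not given in the sources used here, so depth, counting error and the effect of read filters on these values are unknown. The dm6 lists were used. By signal, the IDR list was the top of the pooled list, row for row (4574 of 4574), so an IDR call follows the pooled signal. A replicate's value is its strongest peak that overlaps the pooled peak by at least 1 bp.

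TSSs came from Ensembl release 115, without transposable elements and unplaced sequences, and promoter sequence from the RefSeq release 6 assembly, whose coordinates are those of dm6. The members, the gene lists and the motifs were chosen with earlier results of these data known. For this reason, and with 1 group, no test was made. All members were accounted for, and named with full values were up to 6 bound members of each class and every paralog. The named control experiment was not used. Of the symbols of partners and mitochondrial factors, 26 of 26 and 9 of 10 matched. Assignment of peaks to genes was tested on simulated data. Python 3.11.15 and matplotlib 3.10.9 were used. Alternatives were windows of 250 and 1000 bp, each replicate alone, the stronger 50% of the peaks, peaks covering a TSS, 1 TSS per gene and the nearest gene only.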

Additional observations from a re-analysis of the deposited data

How the results depend on the processing

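The counts of bound members (20), general factors (19) and pooled-list members (38) stayed within 1.5 times of these values under the alternatives, with 1 exception. With the stronger 50% of the IDR peaks, 13 members were bound, all of them general, so that the paralogs had 0 and the partners and regulators 8, against 12.8% of coding genes. The median signal of bound members was then 207.3, a rise that follows from the cut. With each replicate's strongest peaks alone the median lay on the replicate's own scale (71.7 to 103.7). In each, 20 members were bound (37.7%), 19 of them shared with the IDR list. Of all coding genes, 21.7% were bound with replicate 1 alone and 20.8% with replicate 3 alone. Replicate 3 alone gained eIF4E1 and lost eIF2A, and replicate 1 alone gained eEF1beta and lost eEF5. Among mitochondrial factors 0 to 1 were bound, the latter being mIF2 in replicate 3. The lowest counts of bound members after that of the stronger peaks were 16 with the nearest gene only and 18 with 1 TSS per gene. Pooled-list members numbered 30 with the nearest gene only (56.6%, against 47.6% of coding genes). For the pooled list, each replicate alone meant its whole list, and the stronger 50% meant peaks at or above the pooled median. The depth is unknown, so a promoter without a peak is one where none was listed. No paired analysis was possible because the replicates form 1 group.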
